A study of Mus musculus with 6 samples.

Results

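The amino acid transporters described here are the genes of 7 solute carrier families, Slc1a, Slc3a, Slc6a, Slc7a, Slc36a, Slc38a and Slc43a, measured in transferred T helper cells. Members were taken by symbol, as every gene whose current name starts with a family name followed by a digit, with the brightest probe standing for each gene. The RefSeq annotation holds 67 such genes, of which 61 had a named probe, out of 20289 named genes on the array. The others, among them Slc7a5, Slc3a1, Slc36a4 and the antisense genes Slc36a1os and Slc36a3os, had none and were not analysed here. Of the 61 members, Slc7a6os and Slc6a19os carry a family name only because they lie opposite a transporter gene, and neither is a transporter.

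Solute carriers of these families move amino acids and related compounds such as taurine, creatine and GABA across the plasma membrane or out of lysosomes. Several Slc7a proteins are light chains that reach the cell surface only when joined to the heavy chain CD98, encoded by Slc3a2. T cells that are activated raise amino acid uptake, and the amino acids taken up are sensed by the kinase complex mTORC1 and, when they run short, by the kinase GCN2 and the transcription factor ATF4.

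RNA came from Th9, Th1 and Th17 cells, 3 kinds of C57BL/6 CD4 T helper cells that differ in the cytokines for which they are named. All 3 kinds had been transferred into tumour-bearing mice and were sorted from the spleen as CD45.1+CD4+ cells 12 days later, so no group was free of tumour or transfer. The tumour, the antigen receptor of the cells and any pooling of animals are not given in the sources used here. Each kind had 2 arrays, 6 in all, and the labels call the other array of a kind a repeat without saying whether it came from separate mice, so the p-values reflect how far these arrays spread, and that spread may be technical.

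Values below are background-subtracted bead intensities on a linear scale as deposited, and log2 levels after a further background correction with an offset of 50 and quantile normalization. An array counts as above background for a probe when its intensity exceeds the one-sided 95% point of normal noise whose size is the root mean square of that array's negative values, a threshold of 5.84 to 6.95 units. The offset shrinks differences of dim probes, so a log2 fold change understates them. Intensities of different probes do not rank the genes, since each probe binds its target differently. Differences were tested with limma over all 12093 genes above background on at least 2 arrays, with Benjamini-Hochberg adjustment, and a gene was called at an adjusted p below 0.05. The 3 comparisons share arrays and are not independent of each other.

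Of 10 measured T cell markers, 10 were above background on at least 2 arrays, and Cd4 lay between 24.1 and 94.1 units. Their summed intensity was 21940 and 23860 in Th9, 24690 and 20340 on the Th1 arrays and 33730 and 32220 in Th17. Some markers of other cells also moved with the kind of cell (sums count values below 0 as 0). B and plasma cell markers, of which 8 of 11 were above background on at least 2 arrays while Pax5 was on 0 and Ms4a1 and Sdc1 were each on 1, summed to 3286 and 4062 in Th9, 2609 and 2374 in Th1 and, for Th17, 1410 and 1313. Cd79b, Cd74, Mzb1 and Igkc were higher in Th9 than in Th17, and the first 3 also than in Th1, whereas Ighm ran the other way (-0.52 for Th9 against Th1 and -0.57 against Th17). Erythroid and platelet markers, 8 of 9 above background but Alas2 on 0 arrays, summed to 667.3 and 687.2 in Th9, 56.4 and 53.3 on the Th1 arrays and 93.5 and 100.8 in Th17. Hba-a1 alone gave 544.2 and 582.6 of the Th9 sums, and it and Hbb-b1 were the only 2 of the 8 called. Granulocyte and mast cell markers, 5 of 10 above background with S100a8, S100a9 and Mcpt8 on 0 arrays, summed to 129.9 and 167 in Th9, against 33.3 and 50.8 in Th1 and 30.6 and 31.4 in Th17. Chil3 (68.6 and 85.3) and Cpa3 (26.1 and 31.8) gave most of the Th9 sums. Both were above background in Th9 alone and so were tested only because of that level. They were the only 2 of the 5 called in the Th9 comparisons. Kit gave 18.3 and 20.9 in Th9 and 16.8 and 19.7 in Th1. Myeloid markers, 7 of 12 above background with Itgam, Cd14, Cybb, Itgax and Cd209a on 0 arrays, summed to 349.6 to 518.3 on the 6 arrays. Most of that sum came from Siglech (193.6 to 260.8 units) and Lyz2 (105.6 to 169.8). Another of the 7, Adgre1, a macrophage marker, gave 34.1 and 21.3 units on the Th9 arrays, while the other 4 arrays reached at most 0.9. Since no array outside Th9 was above background for Adgre1, its Th9 level alone brought it into the test. Its log2 level in Th9 exceeded that of Th1 by 0.51 (adjusted p = 0.00542, limma) and that of Th17 by 0.51 (adjusted p = 0.00283, limma). Both Adgre1 calls ended when Th9 replicate 1 was left out. CD8 and NK markers, 4 of 6 above background with Cd8a and Ncr1 on 0 arrays, summed to 1204 and 1325 in Th9, 1234 and 1075 in Th1 and, for Th17, 767.8 and 581.7. Cd8b1 gave most of that sum, 552.2 to 1257.7 units, while Klra4 was lower in Th9 than in Th1 (-0.48). In such samples, fewer cells that express a gene and less of its RNA per cell cannot be told apart.

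Few tested amino acid transporter members were called different between the 3 kinds of cells. The shares called were 5.56% in Th9 against Th1, 5.56% in Th9 against Th17 and 8.33% in Th17 against Th1. Of all genes tested, 10.7, 19 and 14.9% were called. Most members lay near background, where the offset shrinks differences on the log2 scale. Its part in the shares called was not tested. Slc7a8, a light chain for large neutral amino acids, was above background in Th9 cells alone, and Slc6a6, the taurine transporter, was higher in Th17 and in Th9 than in Th1. Slc38a9, which signals lysosomal arginine to mTORC1, and Slc6a13, a GABA transporter, were higher in Th17 than in Th1. Of the 61 members, 36 were above background on at least 2 arrays and were tested (59%, against 59.4% of all named genes by the same brightest-probe rule). On all 6 arrays, 12 members were above background (19.7%, against 41.1% of all named genes), and 15 were on none (24.6%, against 29.6%).

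Against Th1, 2 of the 36 tested members were higher in Th9 and 0 lower in limma's test, where 10.7% of all genes tested were called, 5.85% higher and 4.85% lower. At an unadjusted p below 0.05, 2 were higher and 2 lower. Against Th17, 1 member was higher in Th9 and 1 lower, where 19% of all genes were called, 10% higher and 8.95% lower. Th17 cells had 3 members higher than Th1 cells and 0 lower, where 14.9% of all genes were called, 7.53% higher and 7.42% lower, and the unadjusted count of members was also 3 higher and 0 lower. The members called were thus 5.56, 5.56 and 8.33% of those tested, beside 10.7, 19 and 14.9% over all genes, differences that were not tested. Single arrays moved these counts. Against Th1, Th9 had 1 called member without Th9 replicate 1 or Th1 replicate 2 and 4 without Th1 replicate 1. Against Th17 it had 1 without either Th9 array or Th17 replicate 2, and 3 without either Th1 array, whereas Th17 against Th1 had 1 without Th17 replicate 1, 2 without the other Th17 array or Th1 replicate 2, and 5 without Th1 replicate 1. The median log2 fold change of the tested members was 0.01, -0.03 and 0.06 in these 3 comparisons, beside 0.01, 0.01 and 0.004 over all genes. The median size of a difference, whatever its sign, was 0.11, 0.07 and 0.11 for members and 0.12, 0.14 and 0.13 for all genes.

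**Figure D1:**
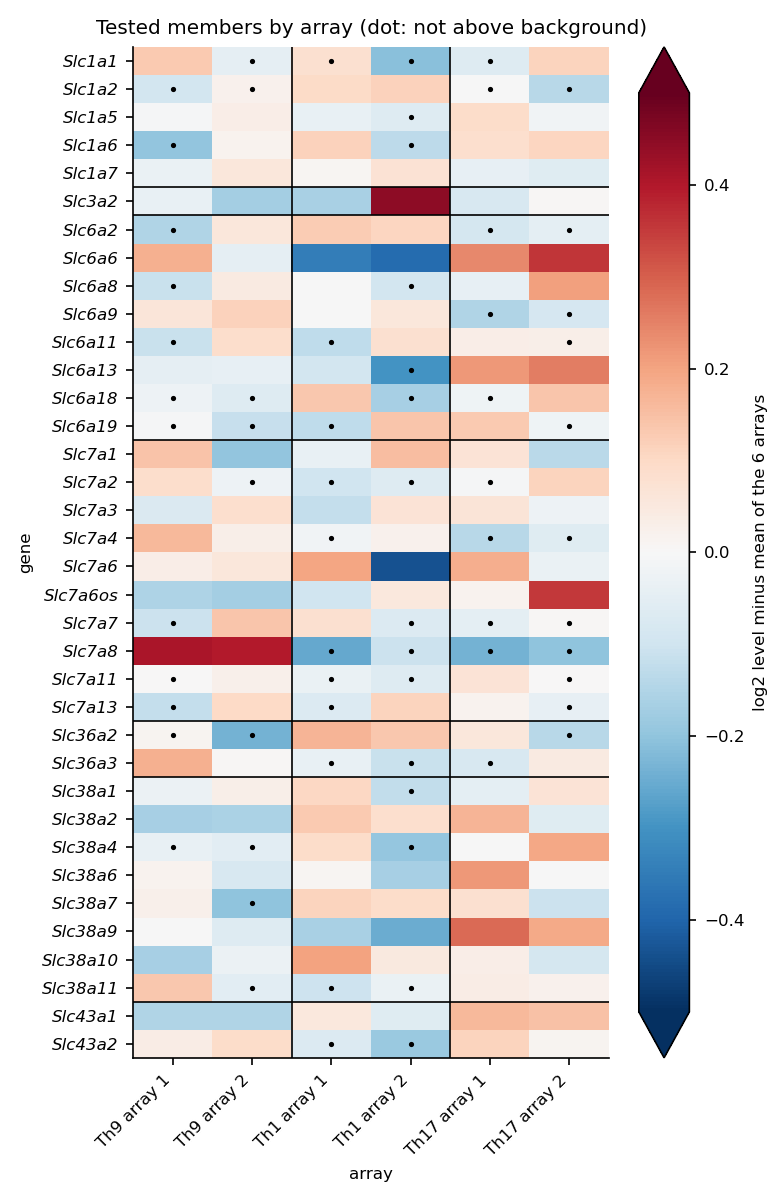
Log2 level of each of the 36 tested members (rows, by family) on the 6 arrays (columns), as the difference from the gene's mean over the arrays, with a dot where the probe was not above background on that array. Slc7a8 stands out in both Th9 arrays, Slc6a6 is low in both Th1 arrays, and the single dark cells of Slc3a2 and Slc7a6 in the Th1 repeat and of Slc7a6os in the Th17 repeat are differences between arrays of 1 kind.

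The clearest difference was that of Slc7a8, which encodes LAT2, a light chain that exchanges large neutral amino acids once joined to CD98. Its intensity was 31.1 and 36.8 on the Th9 arrays, -2.1 and 3.4 on the Th1 arrays, and -1.6 and -0.4 on the Th17 arrays. Both Th9 arrays were above background and none of the other 4 was, so the gene was tested only because of its Th9 level. The fitted log2 difference of Th9 was 0.585 against Th1 (1.5-fold, adjusted p = 0.000829, limma) and 0.622 against Th17 (1.54-fold, adjusted p = 0.000253, limma). As lower bounds that were not tested, normalized levels were at least 1.35-fold higher in Th9 than in Th1 and at least 1.37-fold higher than in Th17. These bounds set the dim arrays at the lowest level of any probe above background, or at their own where that was higher. On the deposited intensities, with no offset or scaling between arrays, the bounds were 5.6-fold and 5.03-fold, a scale chosen after seeing the data. The call against Th1 ended when background correction and offset were left out (log2 fold change 3.96, adjusted p = 0.0873), while the call against Th17 held in 15 of the 15 alternatives. The dimmer Slc7a8 probe was above background on 0 arrays. The macrophage marker Adgre1 was likewise above background in Th9 alone, but no other of the 7 tested myeloid markers was called. The summed erythroid, granulocyte and B cell markers were highest in Th9, as given above. The erythroid sum rested mainly on Hba-a1 and the granulocyte sum on Chil3 and Cpa3, and Ighm was lower in Th9. The part of these markers in the Slc7a8 difference was not tested.

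The promoter of Slc7a8 is shown with those of Slc38a9 and Slc6a13, the other called transporters that RefSeq's promoter table holds, and of Slc43a1, described below. Each window runs from 250 bases before to 50 after an annotated start in GRCm38.p6, and for Slc6a13 the most upstream of its 3 starts is given. Capitals mark a match to TGATGNAA (the composite site bound by C/EBP and ATF factors), CACGTG (an E-box) or TGANTCA (an AP-1 site), searched on both strands; where there are no capitals, these letters are not in the window.
Slc7a8 (chr14:54781837-54782136, minus strand): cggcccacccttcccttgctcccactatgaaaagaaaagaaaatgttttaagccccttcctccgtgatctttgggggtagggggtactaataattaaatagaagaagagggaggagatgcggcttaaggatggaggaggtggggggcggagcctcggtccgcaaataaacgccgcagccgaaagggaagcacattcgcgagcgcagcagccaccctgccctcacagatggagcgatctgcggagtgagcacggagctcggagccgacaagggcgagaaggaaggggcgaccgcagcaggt
Slc38a9 (chr13:112660516-112660815, plus strand): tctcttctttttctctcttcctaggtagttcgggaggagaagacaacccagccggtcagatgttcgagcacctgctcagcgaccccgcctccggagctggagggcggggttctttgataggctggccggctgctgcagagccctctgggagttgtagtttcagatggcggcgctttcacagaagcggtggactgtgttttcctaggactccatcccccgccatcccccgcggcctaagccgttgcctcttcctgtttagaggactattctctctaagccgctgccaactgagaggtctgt
Slc6a13 (chr6:121300038-121300337, plus strand): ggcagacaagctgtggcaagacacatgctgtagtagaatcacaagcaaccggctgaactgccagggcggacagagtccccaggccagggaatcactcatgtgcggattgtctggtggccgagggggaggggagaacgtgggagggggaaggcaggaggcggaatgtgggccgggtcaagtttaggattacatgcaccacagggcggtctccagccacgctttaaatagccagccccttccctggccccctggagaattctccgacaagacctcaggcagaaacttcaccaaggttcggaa
Slc43a1 (chr2:84840073-84840372, plus strand): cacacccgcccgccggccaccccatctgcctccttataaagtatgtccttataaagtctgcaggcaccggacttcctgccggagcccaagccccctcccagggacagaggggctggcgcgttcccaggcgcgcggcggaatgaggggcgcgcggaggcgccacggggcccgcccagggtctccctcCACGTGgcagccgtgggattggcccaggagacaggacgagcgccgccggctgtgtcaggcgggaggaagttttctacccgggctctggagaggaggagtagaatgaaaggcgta
A match was found in Slc43a1 alone of these 4 windows, an E-box at -64 relative to the annotated start used. The annotated Slc38a9 and Slc43a1 genes begin upstream of their windows, at 112656189 and 84838855, and those positions were not searched. Of all 32851 promoter windows, 3.97% hold the first motif, 7.15% the E-box and 7.81% the AP-1 letters. Of the 70 windows of 49 members, 5, 9 and 10 do (7.14, 12.9 and 14.3%). The motif letters can overlap by chance with other sites, and a match is a description of the sequence only.

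Slc6a6 encodes the transporter for taurine and belongs to the sodium- and chloride-coupled Slc6a family. Intensities were 1279.6 and 1257 in Th9, 853.9 and 677.3 on the Th1 arrays and 1662 and 1649 in Th17. The order Th17, Th9, Th1 held without overlap of arrays. Such separation was common: in normalized levels, 47.8% of all genes tested did not overlap between Th9 and Th1. For Th9 and Th17 the share was 55.8%, and for Th17 and Th1 52.8%. Among tested members the shares were 52.8, 36.1 and 47.2%. In normalized levels Th17 exceeded Th1 by 0.67 ± 0.11 (log2 fold change ± SE, adjusted p = 0.000301, limma), a 1.59-fold difference. Th9 exceeded Th1 by 0.43 ± 0.11 (adjusted p = 0.0158, limma), and Th9 against Th17 did not pass (-0.23, 95% interval -0.47 to 0.003, adjusted p = 0.181). The call of Th9 against Th1 ended without Th9 replicate 1 (0.32, adjusted p = 0.222) or Th1 replicate 2 (0.41, adjusted p = 0.0625), with an offset of 16 (adjusted p = 0.122), with both probes averaged (0.21, adjusted p = 0.2) and when no background was corrected (adjusted p = 0.256). That of Th17 against Th1 ended only without background correction (0.70, adjusted p = 0.107). Another Slc6a6 probe, above background on the Th17 arrays alone at 8 and 9.6 units, gave 0.11 for Th17 against Th1 and did not pass. The summed T cell markers were also highest in Th17, and their part in this difference and in those of Slc38a9 and Slc6a13 was not tested.

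**Figure D2:**
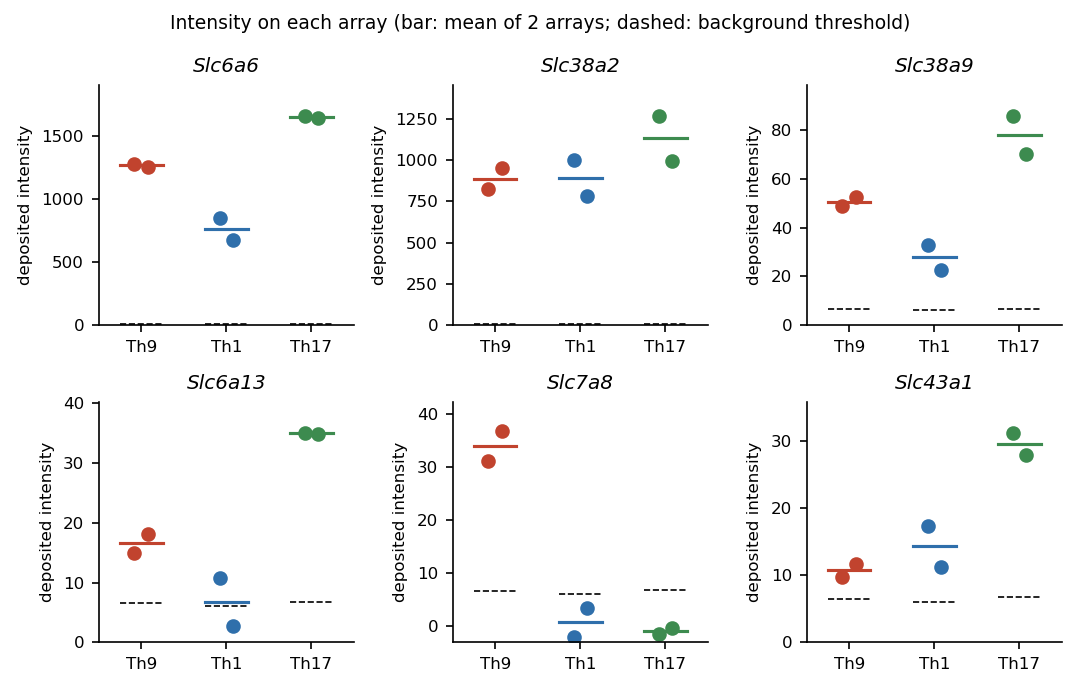
Deposited intensity (linear scale, each gene on its own axis) of 6 members on each array, with a point per array, a bar at the mean of the 2 arrays and a dashed line at the mean background threshold of that kind. Slc6a6, Slc38a9, Slc6a13 and Slc43a1 are highest in both Th17 arrays, and Slc7a8 is above background in Th9 alone. For Slc38a2 the Th1 arrays overlap with both other kinds, and both Th9 arrays lie below both Th17 arrays.

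Slc6a13 encodes GAT2, a GABA transporter that also carries taurine. It gave 15 and 18.2 units in Th9, 10.8 and 2.7 in Th1 and, for Th17, 35 and 34.9. Both Th17 arrays lay above all others, and the Th1 repeat was not above background. Th17 exceeded Th1 by 0.43 ± 0.11 on the log2 scale (adjusted p = 0.0106, limma), whereas Th9 against Th17 did not pass (-0.28, adjusted p = 0.0895). Leaving out Th1 replicate 2 ended the call (0.33, adjusted p = 0.106). So did leaving out Th17 replicate 1 (0.45, adjusted p = 0.0583), leaving out its repeat (0.41, adjusted p = 0.0966), and omitting the background step (adjusted p = 0.194).

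The other Slc6a members that could be tested did not pass in any comparison. Slc6a8, the creatine transporter, gave 3.6 to 20.2 units on the 6 arrays and was above background on 4. Slc6a9, the glycine transporter GlyT1, was above background on both Th9 arrays (9.8 and 15.1) and both Th1 arrays (6 and 7.9) and on neither Th17 array (0.6 and 3.2), with a log2 fold change of 0.20 for Th9 against Th17 (adjusted p = 0.221). Slc6a2, the noradrenaline transporter, and Slc6a11, the GABA transporter GAT3, were each above background on 3 arrays, with highest values of 8.2 and 11.3. Slc6a18 and Slc6a19, neutral amino acid transporters known from kidney and gut, were each above background on 2 arrays and never exceeded 9.8 and 14.7 units. The other 13 Slc6a members with a probe, among them the dopamine and serotonin transporters Slc6a3 and Slc6a4, were above background on at most 1 array, reached no more than 16.1 units, and were not tested.

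Of the Slc7a family, which holds cationic amino acid transporters and the CD98 light chains, 10 of 15 members were tested. Slc7a1, the arginine transporter CAT1, was above background on all 6 arrays, at 45.4 and 28.2 units in Th9, 29 and 33.2 on the Th1 arrays and 46.8 and 29.1 in Th17. Its arrays overlapped between all kinds, and the 95% interval of the log2 difference between Th9 and Th1 ran from -0.35 to 0.18. Slc7a6, the light chain y+LAT2, gave 35.7 and 45 in Th9, 41.2 and 7.6 in Th1 and, for Th17, 54.3 and 33.9. The Th1 repeat was far below the other 5 arrays, and Slc7a6 was called higher in both Th9 (0.48, adjusted p = 0.024) and Th17 (0.51, adjusted p = 0.0127) than in Th1 when Th1 replicate 1 was left out.

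Slc7a3, another cationic transporter, was above background on all 6 arrays at 6.3 to 21 units and did not pass. Slc7a11, the cystine and glutamate exchanger xCT that feeds glutathione synthesis, was above background on 2 arrays and reached 10.4 units. Slc7a2, Slc7a4, Slc7a7 and Slc7a13 were above background on 2 or 3 arrays, at up to 9.9, 14.6, 15.1 and 12.1 units, and did not pass. Slc7a9, Slc7a10, Slc7a12, Slc7a14 and Slc7a15, with at most 1 array above background and no value over 6.6, were not tested.

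Slc7a6os, the neighbour of Slc7a6 that is not a transporter, was the member called lower in Th9 than in Th17 (-0.35 ± 0.12, adjusted p = 0.0499, limma). It gave 35.8 and 41.7 units in Th9, 34.8 and 36.2 on the Th1 arrays and 56.5 and 83.3 in Th17, where the repeat array was the highest of the 6. Without Th17 replicate 2 the log2 fold change was -0.18 (adjusted p = 0.535), and the call also ended without Th9 replicate 1 (adjusted p = 0.165) or Th9 replicate 2 (adjusted p = 0.19). It held in 6 of 15 alternatives. Its other probe gave -0.13 and did not pass. With Slc7a6os set aside, 0 transporter genes were called lower in Th9 than in Th17 in limma's test, against 3 at an unadjusted p below 0.05.

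Slc3a2, the heavy chain CD98, was above background on all 6 arrays. Intensities were 62.5 and 62.3 in Th9, 46.1 and 80.1 in Th1 and, for Th17, 70 and 72.7. The Th1 arrays enclosed those of both other kinds, and the differences of -0.25 on the log2 scale for Th9 and -0.18 for Th17, each against Th1, did not pass, nor did the -0.07 of Th9 against Th17. When Th1 replicate 1 was left out, leaving the higher Th1 array, Slc3a2 was called lower in Th9 (-0.55, adjusted p = 0.0074) and in Th17 (-0.48, adjusted p = 0.0152) than in Th1.

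The Slc38a family holds sodium-coupled transporters of glutamine and other neutral amino acids, and 8 of its 11 members were tested. Slc38a2, which encodes SNAT2 and is known to be induced when amino acids run short, gave 827.5 and 950.0 units in Th9, 998.3 and 782.9 on the Th1 arrays and 1269 and 997.5 in Th17. The unscaled Th1 intensities overlapped those of both other kinds, while both Th9 arrays lay below both Th17 arrays. After normalization both Th9 arrays lay below the arrays of both other kinds. Th9 against Th1 gave a log2 fold change of -0.27 (95% interval -0.50 to -0.04, adjusted p = 0.154, limma), which did not pass. Th9 against Th17 gave -0.21 (adjusted p = 0.219) and Th17 against Th1 -0.05 (adjusted p = 0.824). Of its 2 other probes, 1 gave -0.21 and the dimmer 0.09 for Th9 against Th1, and neither passed.

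Slc38a9 sits in the lysosomal membrane, where it signals the presence of lysosomal arginine to mTORC1. It gave 48.7 and 52.7 units in Th9, 32.8 and 22.8 in Th1 and, for Th17, 85.8 and 70.1. The kinds did not overlap, in the same order of Th17, Th9 and Th1 as Slc6a6, and the all-gene shares without overlap given there apply here too. Th17 exceeded Th1 by 0.44 ± 0.11 on the log2 scale (adjusted p = 0.00729, limma). The steps between neighbours did not pass, at 0.17 for Th9 against Th1 (adjusted p = 0.397) and -0.27 for Th9 against Th17 (adjusted p = 0.0934). The call ended without Th17 replicate 1 (0.40, adjusted p = 0.0905), with its kept probes averaged (0.22, adjusted p = 0.18) and when no background was corrected (adjusted p = 0.07). Of its 2 dimmer kept probes, 1 gave 0.20 and the other 0.03 for Th17 against Th1, and neither passed.

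The remaining Slc38a members did not pass in any comparison. Slc38a6 and Slc38a10 were above background on all 6 arrays, at 16.4 to 55.4 and 19.2 to 36.7 units. Slc38a1, the glutamine transporter SNAT1, was above background on 5 arrays at no more than 12.1 units, and Slc38a7, a lysosomal glutamine transporter, on 5 at no more than 21.5. Slc38a4 and Slc38a11 were each above background on 3 arrays, and Slc38a3, Slc38a5 and Slc38a8 on at most 1 with no value over 8.1, so these last 3 were not tested.

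Slc43a1 encodes LAT3, which carries branched-chain amino acids and phenylalanine without a heavy chain. Intensities were 9.8 and 11.7 in Th9, 17.4 and 11.2 on the Th1 arrays and 31.2 and 28 in Th17. Both Th17 arrays lay above the other 4. Th9 against Th17 missed the threshold at -0.31 ± 0.11 (adjusted p = 0.0521, limma) and passed it in 9 of 15 alternatives, for example with an offset of 16 (-0.55, adjusted p = 0.0327). Slc43a2, the related transporter LAT4, was above background on both Th9 arrays (10.3 and 15.4) and both Th17 arrays (16.2 and 9.5) but not in Th1 (4.6 and 0.3), and did not pass (0.19 for Th9 against Th1, adjusted p = 0.338). Slc43a3 was above background on 1 array, at 10.2, and was not tested.

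Slc1a5, the glutamine transporter ASCT2, was dim in all kinds, at 10.3 and 14.5 units in Th9, 7.6 and 6.2 in Th1 and, for Th17, 17.5 and 10. Only the Th1 repeat was not above background, and the log2 fold changes lay between -0.02 and 0.09 with no call. The glutamate transporters Slc1a1 and Slc1a2 were each above background on 2 arrays and were not called. Slc1a6, also a glutamate transporter, whose probe gave the highest mean signal in the family, gave 4.4 and 17.5 units in Th9, 16.8 and 6.1 on the Th1 arrays and 21.2 and 20.6 in Th17, so that its Th9 and Th1 arrays overlapped, and Slc1a7 gave 11 to 19.7 on the 6 arrays. Neither passed. Slc1a4, the neutral amino acid transporter ASCT1, was above background on 1 array, at 7.4, and Slc1a3 on 0. Of the proton-coupled Slc36a family, Slc36a3 gave 14.6 and 7.3 units in Th9, 3.7 and 1.1 in Th1 and, for Th17, 2.6 and 8.3. Slc36a2 was above background on 3 arrays at up to 11.4 units (-0.27 for Th9 against Th1, adjusted p = 0.187). Neither was called, and Slc36a1, at 10.4 on the 1 array where it was above background, was not tested.

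Most members not called were bounded closely on this scale. Of 34 such members in Th9 against Th1, 31 had a 95% interval (not adjusted for multiple tests) within 0.5 of 0 on either side, as had 32 of 34 in Th9 against Th17 and 32 of 33 in Th17 against Th1. Since the offset shrinks dim probes, these limits hold for the normalized level only. Between repeats, the SD of the log2 level of a tested member had a median of 0.08 in Th9, 0.09 in Th1 and 0.08 in Th17, and was largest for Slc7a6 in Th1, at 0.45.

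**Figure D3:**
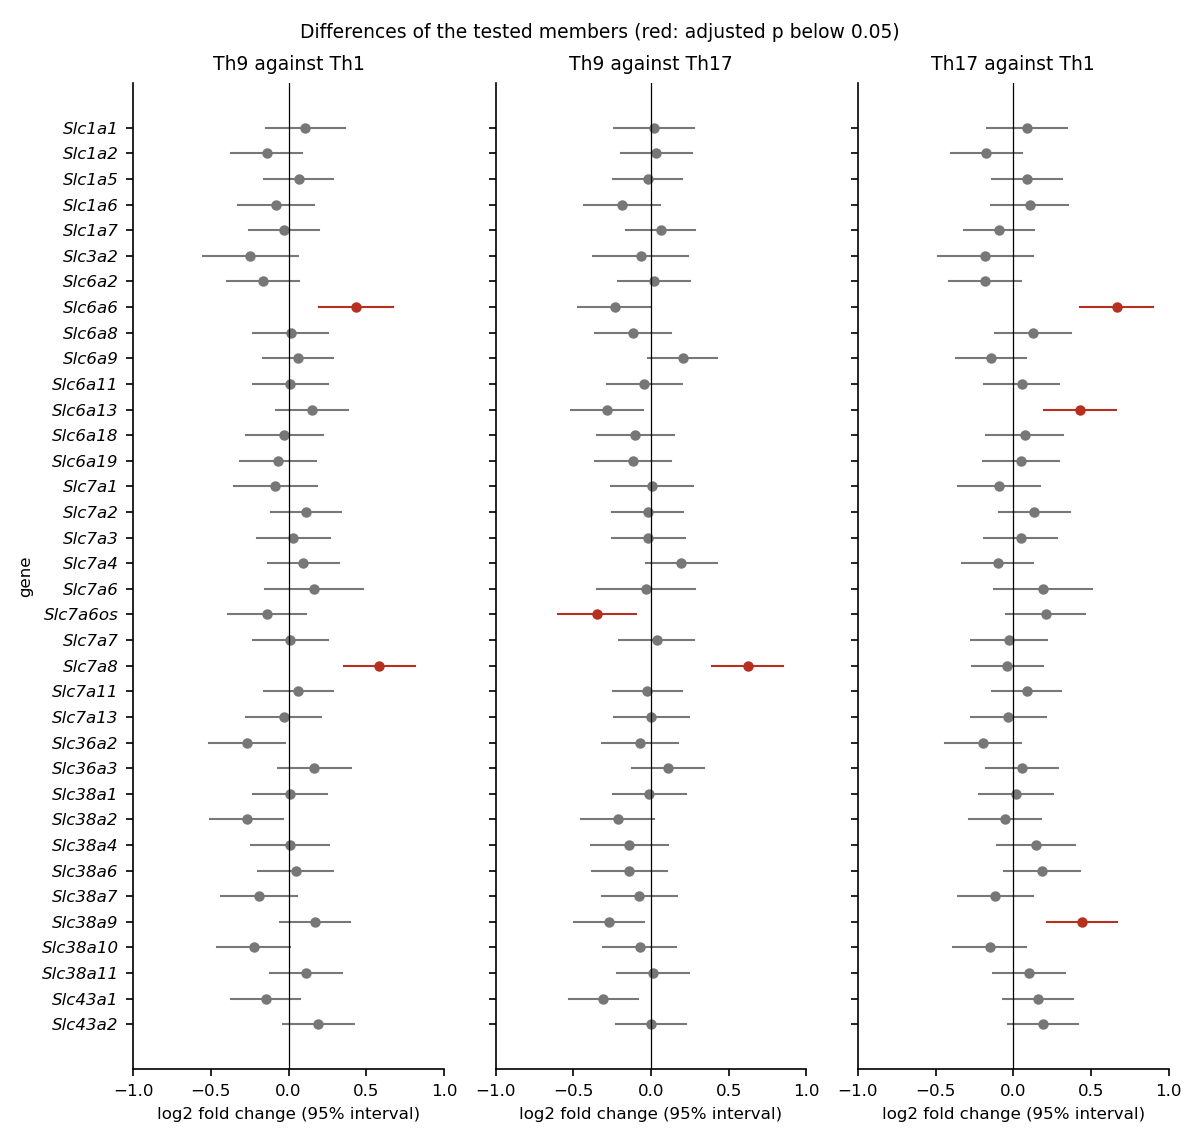
Log2 fold change of the 36 tested members (rows) in the 3 comparisons (panels), with unadjusted 95% intervals from the limma fit of 6 arrays and members called at an adjusted p below 0.05 in red. The 7 calls belong to Slc6a6, Slc7a8, Slc7a6os, Slc38a9 and Slc6a13, and the intervals of most other members span 0.

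Genes that sense and use amino acids were described beside the transporters. In the list of amino acid sensing and mTORC1 genes, 3 of 34 tested were higher and 1 lower in Th9 than in Th1, 5 higher and 5 lower than in Th17, and 6 higher and 1 lower in Th17 than in Th1, which are 11.8, 29.4 and 20.6% of the list beside 10.7, 19 and 14.9% of all genes tested. The median log2 fold change of the list was 0.04, -0.04 and 0.10. The leading gene was Sesn1, a sestrin that restrains mTORC1, at 302.7 and 327.4 units in Th9, 540.5 and 388 on the Th1 arrays and 1041 and 907.9 in Th17. Sesn1 was lower in Th9 than in Th17 (-1.39 ± 0.11, adjusted p = 9.99e-09, limma) and than in Th1 (-0.79), and higher in Th17 than in Th1 (0.60). Castor1, a cytosolic arginine sensor, was higher in Th9 than in Th1 (0.76), as it was in Th17 (0.47). Tbc1d7, a subunit of the TSC complex that holds mTORC1 back, and Fnip1, a partner of folliculin, were higher in Th9 than in Th17 (0.71 and 0.67), and Flcn, folliculin itself, was higher in Th17 than in Th1 (0.55). Castor1 was no longer called in Th17 against Th1 without Th1 replicate 1 or either Th17 array (adjusted p up to 0.106), and the 10 calls of the list in Th9 against Th17 became 5 without Th17 replicate 2 and 6 without Th9 replicate 2. With arrays scaled to their median in place of quantile normalization, 7 were higher and 1 lower in Th9 than in Th1, 3 and 4 in Th9 than in Th17, and 11 and 0 in Th17 than in Th1. Under that scaling the all-gene median log2 fold change was 0.14, -0.02 and 0.15 in these comparisons, and 0.01, 0.01 and 0.004 otherwise.

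Of 19 tested genes of the GCN2 and ATF4 response, 3 were higher and 1 lower in Th9 than in Th1, 6 higher and 2 lower than in Th17, and 3 higher and 4 lower in Th17 than in Th1 (21.1, 42.1 and 36.8% of the list, beside the same 10.7, 19 and 14.9% of all genes). Its median log2 fold change was 0.13, 0.16 and -0.10. Removing any 1 array gave 1 or 2 calls in place of 4 in Th9 against Th1, while Th9 against Th17 had 5 calls without either Th9 array or Th17 replicate 2, and Th17 against Th1 had 4 without Th17 replicate 1. Atf4 itself gave 1262 and 1294 units in Th9, 1002 and 824 in Th1 and, for Th17, 962.1 and 900.0, and was higher in Th9 than in Th17 (0.55 ± 0.11, adjusted p = 0.000899, limma). Asns, which makes asparagine, and Phgdh, the entry enzyme of serine synthesis, were lower in Th17 than in Th1 (-0.71 for both). Trib3, an inhibitor of ATF4 that ATF4 induces, and Vldlr, a lipoprotein receptor, went the other way, higher in Th17 than in Th1 (1.14 and 1.42) and lower in Th9 than in Th17 (-1.39 and -1.26). Median scaling gave 5 higher and 0 lower against Th1, 2 and 2 against Th17, and 4 and 0 for Th17 over Th1, and under it Asns and Phgdh were no longer called in Th17 against Th1.

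Among 18 genes of amino acid catabolism and glutamine use, 1 was higher in Th9 than in Th1 and 0 lower (unadjusted 4 and 0), 5 higher than in Th17 and 0 lower (8 and 0), and in Th17 against Th1 0 were higher and 4 lower (0 and 4). The calls were 5.56, 27.8 and 22.2% of the list, beside 10.7, 19 and 14.9% of all genes. The list's median log2 fold change was 0.06, 0.20 and -0.05. The 5 calls against Th17 became 2 without Th9 replicate 1 or either Th17 array and 1 without Th9 replicate 2, and the 4 in Th17 against Th1 became 2 without Th17 replicate 1. Il4i1, a secreted oxidase of phenylalanine and other amino acids, led them, at 332.8 and 394.6 units in Th9, 115.3 and 118.1 on the Th1 arrays and 28.3 and 9 in Th17. Th9 exceeded Th17 by 2.38 ± 0.12 (adjusted p = 1.79e-11, limma) and Th1 by 0.94, and Th17 was below Th1 (-1.44). Oat, ornithine aminotransferase, was higher in Th9 than in Th17 (0.48), and Bcat1, the cytosolic branched-chain aminotransferase, lower in Th17 than in Th1 (-0.48). Oat was not called without Th9 replicate 2 or Th17 replicate 2 (adjusted p up to 0.089). Arg1 and Arg2, which break down arginine, were above background on 0 arrays. Median scaling gave 4 higher and 0 lower, 1 and 0, and 2 and 1 in the same 3 comparisons, and ended the calls of Oat and Bcat1. The summed B and plasma cell markers were also highest in Th9 and lowest in Th17, as were Cd79b, Cd74 and Mzb1 but not Ighm. Adgre1, the only called marker of the 7 tested myeloid markers, was highest in Th9. The part of these markers in the result was not tested.

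Of 17 tested aminoacyl-tRNA synthetases, which load amino acids onto tRNA, 0 were called in Th9 against Th1 in limma's test (2 at an unadjusted p below 0.05), 1 was higher in Th9 than in Th17, Aars (0.46), and 2 were lower in Th17 than in Th1, Aars (-0.38) and Iars (-0.39). These are 0, 5.88 and 11.8% of the list, each below the 10.7, 19 and 14.9% of all genes. Their median log2 fold change was -0.10, -0.03 and -0.12. The call of Aars against Th17 ended without Th9 replicate 2 or either Th17 array (adjusted p up to 0.23), and 0 synthetases were called in Th17 against Th1 without Th1 replicate 1 or Th17 replicate 1. In that comparison Aars held in 5 of 15 alternatives and was also lost with the repeat as a replicate block, which left 1 call. Under median scaling 0 were called in both Th9 comparisons, and 2 were higher in Th17 than in Th1. Of 6 glutathione genes, 1 was called, Ggt1, higher in Th17 than in Th1 (0.35, 16.7% of the list beside 14.9% of all genes), and 0 in the Th9 comparisons (unadjusted 0 against Th1 and 1 against Th17). Their median log2 fold change was -0.09 for Th9 against Th1, -0.03 against Th17 and 0.04 for Th17 against Th1. The call of Ggt1 ended without Th1 replicate 1 or either Th17 array. Ggt1 was above background on the Th17 arrays alone, at 11.8 and 13.1 units, so it was tested only because of its Th17 level.

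Of 13 tested carriers outside the 7 families, listed as carriers of amino acids or peptides, 3 were higher in Th9 than in Th1 and 0 lower (unadjusted 5 and 0), 3 higher and 2 lower than in Th17, and 1 higher in Th17 than in Th1 and 0 lower (unadjusted 4 and 0). The shares called, 23.1, 38.5 and 7.69%, stand beside 10.7, 19 and 14.9% of all genes, and the median log2 fold change was 0.08, -0.04 and 0.16. Slc25a12, the mitochondrial aspartate and glutamate carrier, gave 94.5 and 121.9 units in Th9, 35 and 30.6 in Th1 and, for Th17, 59.8 and 50.9. Th9 exceeded Th1 by 0.65 ± 0.11 (adjusted p = 0.000232, limma) and Th17 by 0.55, and both calls held in 15 of 15 alternatives. Slc25a38, a mitochondrial glycine carrier, was higher in Th9 than in Th1 (0.52) and Th17 (0.34). The first call ended without Th9 replicate 2 (adjusted p = 0.0831) and the second without any 1 of the 4 arrays compared (up to 0.312). The list also holds Slc17a9, known mainly as a vesicular nucleotide carrier, and Slc17a5, known mainly as a sialic acid carrier. Slc17a9 was the call in Th17 against Th1 (1.01) and 1 of the 3 higher in Th9 than in Th1 (0.37), and it and Slc17a5 were the 2 lower in Th9 than in Th17 (-0.64 and -0.41). The call of Slc17a9 in Th9 against Th1 was lost in 10 of 15 alternatives, among them the removal of any 1 array. That of Slc17a5 ended without background correction, without Th9 replicate 2 and without Th17 replicate 2. Without Th9 replicate 2 the list had 1 call against Th1 and 2 against Th17. Counts under median scaling were 5 higher and 0 lower, 2 and 2, and 4 and 0.

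Of 7 tested regulators of transporter expression and trafficking, 2 were higher and 2 lower in Th9 than in Th1, 1 higher and 2 lower than in Th17, and 1 higher in Th17 than in Th1 and 0 lower (unadjusted 2 and 0). The calls were 57.1, 42.9 and 14.3% of these 7, beside 10.7, 19 and 14.9% of all genes. Their median log2 fold change was -0.07, -0.10 and -0.17. Sgk1, a kinase that keeps several carriers at the surface, gave 330.1 and 347.5 units in Th9, 152.1 and 108.4 on the Th1 arrays and 1998 and 1847 in Th17, and rose in Th17 over Th1 by 2.97 ± 0.11 (adjusted p = 1.84e-13, limma). Nedd4l, a ubiquitin ligase that removes carriers from the surface, was higher in Th9 than in Th1 (0.77) and Th17 (1.003). Myc, a transcription factor that raises amino acid transporters in activated T cells, was lower in Th9 than in Th1 (-0.41), a call that ended without Th9 replicate 2 or Th1 replicate 2 (adjusted p up to 0.349) and under median scaling. The other gene lower in Th9 than in Th1, Txnip, which restrains glucose uptake (-0.37), was lost without any 1 of the 4 arrays compared (adjusted p up to 0.234), so that 0 were lower without Th9 replicate 2 or Th1 replicate 2. Scaling to the median gave 2 higher and 0 lower, 1 and 2, and 2 and 0. Without background correction and offset, each of the 7 lists had at most 1 call in Th9 against Th1 and at most 2 in the other comparisons, and Sesn1, Trib3, Vldlr, Il4i1, Slc25a12 and Sgk1 were called in Th9 against Th17.

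**Figure D4:**
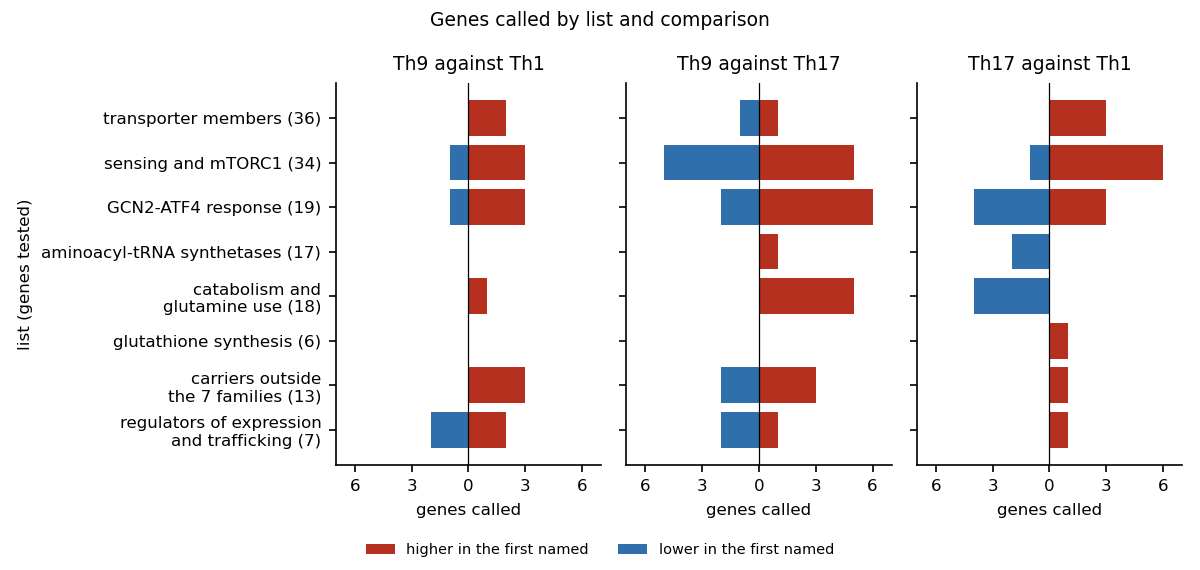
Number of genes called at an adjusted p below 0.05 in each list (rows, with the number tested) and comparison (panels), with genes higher in the first named kind to the right and lower to the left. The transporter members have 2, 2 and 3 calls among 36, and the GCN2-ATF4 list 4, 8 and 7 among 19.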

How the data were processed

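Illumina bead arrays were hybridised with biotin-labelled cRNA made from total RNA, per the labels. The intensities used are those of the value table the authors deposited, linear and already background-subtracted, with values below 0 on each array, by a method not given in the sources used here. A further deposited table has 12 columns whose names match no sample, and they were not used, so detection p-values were replaced by the noise threshold given above.

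Of 45281 probes, 28620 found their gene in the RefSeq table (GRCm38.p6) by identifier, 2637 by accession, 2128 by current symbol and 2343 by an older one, while 56 kept the symbol as given and 9497 had no gene. Intensities were corrected with normexp (offset 50), quantile normalized and put on the log2 scale. The 22460 probes above background on at least 2 arrays were kept, and the brightest probe stood for each of 12093 genes. limma 3.58.1 in R 4.3.3 was fitted to the 6 arrays by kind, with 3 residual and 16.2 prior degrees of freedom, after a check on simulated data. The number of arrays limits the precision. Arrays of a kind correlated at 0.9915 to 0.9942 over kept probes, against 0.9714 to 0.981 between kinds.

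Named genes were every tested member, with values on each array for called members and the brightest of each family, and up to 4 called genes of each list. The members and lists were chosen with earlier results of these data known. The first and repeat arrays of the kinds did not deviate together (correlations of -0.022, -0.028 and 0.019), so they were not paired. Alternatives changed the background step, offset, scaling, probe filter, choice of probe, variance model and arrays used, 1 at a time, and added the repeat as a block. Promoter sequences are RefSeq's.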

Additional observations from a re-analysis of the deposited data

How the results depend on the processing

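Of the 7 calls of members, that of Slc7a8 in Th9 against Th17 held in 15 of 15 alternatives, and 0 reversed direction in any. The alternatives use the same arrays, and Slc7a8 was tested only because of its Th9 level. The counts of members called, 2 and 2 in Th9 against Th1 and against Th17 and 3 between Th17 and Th1, were 0, 2 and 0 without background correction, where limma gave 4 members in the first and 8 in the last at an unadjusted p below 0.05. With an offset of 16 the count in Th9 against Th1 was 1, as it was with the mean of all kept probes, and with arrays scaled to their median the count in Th9 against Th17 was 1, higher in Th9, in place of 1 higher and 1 lower. Leaving out 1 array at a time gave 1 to 4, 1 to 3 and 1 to 5 members. With fewer arrays the lone array of a kind is assumed to vary like the others. With arrays scaled to their median, Slc6a6 exceeded the median of all genes by 0.53 in Th9 against Th1 and 0.87 in Th17 against Th1. With the word repeat as a replicate block, the counts were 2, 2 and 3 and the call of every tested member was as before, while in the other lists Psph in Th9 against Th1 and Psat1 and Aars in Th17 against Th1 lost theirs. The share of all genes called ranged from 1.96 to 14.3%, 5.57 to 21.7% and 2.6 to 22.6% over the alternatives, lowest without background correction in each comparison; the cause was not tested. For transporter genes near background, which are most of the members, the offset shrinks differences on the log2 scale. Its part in the counts of members called was not tested.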
